A study of Mus musculus with 4 samples.

Results

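The lysosomal cathepsins and the vacuolar proton pump were examined in RNA-seq of mouse hearts at postnatal day 7 (P7). Members were the autosomal protein-coding genes named *Cts* plus a single letter (cathepsins), *Atp6v0* or *Atp6v1* (pump subunits), and *Lamp1* or *Lamp2*. By this rule 42 of the 24454 genes in the count table were members: 18 cathepsin genes, 9 genes named for the membrane sector V0, 14 named for the cytosolic sector V1, and *Lamp1*. The V1 names include *Atp6v1fnb*, which is not a pump subunit. *Lamp2* lies on the X chromosome and was therefore outside the rule. The *miR-128*OE hearts (libraries WH9 and WH10) came from *α-MHC*-tTA; *miR-128*TetRE mice, in which the tetracycline transactivator is driven by the *α-MHC* promoter in cardiomyocytes (CMs) and switches on a tetO-controlled *miR-128* cassette when doxycycline is withdrawn. The Ctrl hearts (WH7 and WH8) came from *miR-128*TetRE mice, which carry the same responder cassette without the transactivator, both groups on a C57BL/6 background. Expression of the transactivator itself and that of *miR-128* cannot be told apart in this design. The doxycycline schedule of the P7 hearts and any pooling of animals were not given in the sources used here.

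Each group had 2 libraries. Their totals were 12385863 and 8096870 counts for Ctrl, and 12440553 and 14359838 for *miR-128*OE. The condition coincided with sex. *Xist* counts were 14543 and 11339 for Ctrl against 94 and 132 for *miR-128*OE, and the Y-linked *Ddx3y* had 13 and 7 against 1442 and 1768, so that an effect of sex and one of the transgenes cannot be told apart. Counts on the microRNA genes themselves were low, with 0 for *Mir128-1* in all libraries and 0, 0, 2 and 10 for *Mir128-2* in WH7, WH8, WH9 and WH10. The heart label was checked by CM markers. Their summed level over 5 genes was 28362 and 28245 CPM in Ctrl against 33999 and 33617 in *miR-128*OE. Here and below, CPM are counts scaled to effective library size, which is the total multiplied by the TMM factor. These factors were 1.04 and 1.03 for Ctrl, and 0.957 and 0.976 for *miR-128*OE, so that all marker sums depend on this scaling. Nothing in the labels says that the libraries of a group came from separate animals, so that p-values measure only the spread between these libraries.

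Lysosomes degrade proteins, lipids and sugars at acid pH. The vacuolar ATPase (V-ATPase) makes that acid: its V1 sector hydrolyzes ATP in the cytosol and turns a rotor that drives protons through the V0 sector in the membrane. Cathepsins are the lysosomal proteases, most of them papain-like cysteine proteases, with cathepsin D as the main aspartic and cathepsin A as a serine enzyme, and most need acid pH to mature. LAMP1 and LAMP2 are the heavily glycosylated proteins that line the lysosomal membrane. In the long-lived CM, lysosomes clear damaged organelles by autophagy. Transcription factors of the MiT/TFE family, among them TFEB, bind E-box motifs in the promoters of many lysosomal genes.

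Of the 42 members, 30 passed the filter on low counts and entered the quasi-likelihood test of edgeR, with p-values adjusted after Benjamini and Hochberg over 14266 genes. At an adjusted p under 0.05, 13 members were higher in *miR-128*OE hearts, where 16.5% of all genes tested were higher, and 2 were lower, where 15.0% of all genes were lower. The other 15 tested members did not pass. *Ctse*, counted among the 13, passed the filter through the *miR-128*OE libraries alone and so had to differ, and without it 12 of 29 members were higher. Both *miR-128*OE libraries lay above both Ctrl libraries for 17 of the tested members, 16 of 29 without *Ctse* (33.7% of all genes). They lay below both for 6 (34.4% of all genes). With a fold of at least 1.5 required as well, 6 members were higher, 5 without *Ctse* (6.55% of all genes), and 2 lower (8.32%). At an adjusted p under 0.01 the counts were 10, or 9 without *Ctse* (8.86%), and 1 (7.36%). The median log2 fold change was 0.23 over the tested members, 0.22 without *Ctse*, and −0.01 over all genes tested.

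The proton pump and the cathepsins are described apart, and the difference between them was not tested. Among the 15 tested pump genes of the rule 8 were higher and 0 lower, where 16.5% of all genes tested were higher and 15.0% lower. Their median log2 fold change was 0.33. DESeq2's test and the offset for GC content and length each left 6 pump genes higher and 0 lower. Of all genes, 1711 of 14266 and 2309 of 14164 were then higher. The pump median was 0.21 with that offset and 0.23 under total counts. It was 0.37, 0.26, 0.32 and 0.35 without WH7, WH8, WH9 and WH10. *Tcirg1*, which encodes the a3 form of a V0 subunit, lacks the *Atp6v* name. It is outside these counts and was lower, with a log2 fold change of −0.74. Among 14 tested cathepsins 4 were higher, 3 of 13 without *Ctse*, and 2 lower, beside the same 16.5% and 15.0% of all genes tested. The cathepsin median was −0.04 (−0.07 without *Ctse*), and this median was positive when Ctrl WH7 was left out (0.11) or *miR-128*OE WH9 was left out (0.04). Scaling by total counts in place of TMM factors moved the median of all genes to −0.11 and left 6 pump genes higher and 0 lower, and 3 cathepsins higher and 3 lower, where 11.3% of all genes were then higher and 20.7% lower. Leaving out WH9 left 6 members higher and 1 lower (6.13% and 4.56% of all genes), and leaving out WH10 left 8 and 1 (8.65% and 6.97%). No member past the threshold changed direction in any of the 14 alternative fits, and 7 of 15 kept their call in each at the same threshold.

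**Figure D1:**
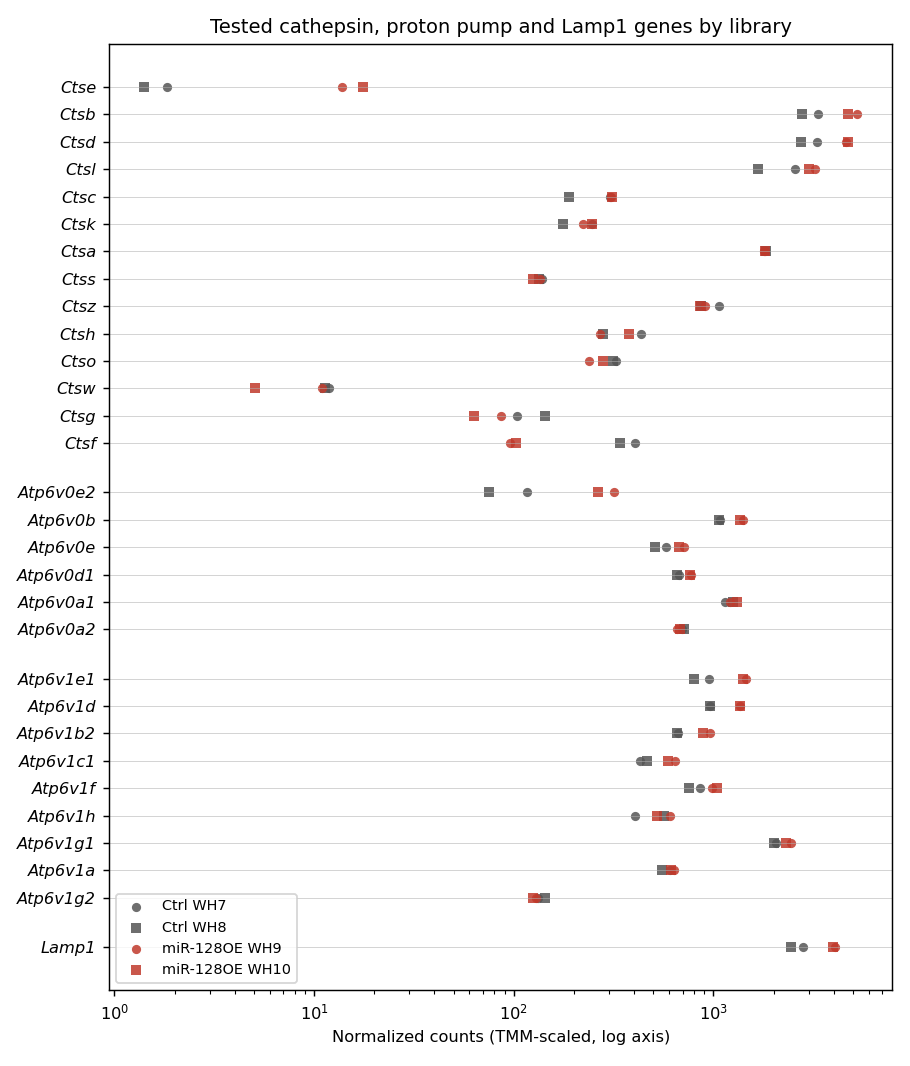
Normalized counts (TMM-scaled, log axis) of the 30 tested members, with a point per library, grey for Ctrl and red for miR-128OE, grouped into cathepsins, V0 subunits, V1 subunits and Lamp1. The groups are well separated for Ctsf, Atp6v0e2, Atp6v1e1 and Lamp1, and the points of Ctsa lie on top of each other.

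Cathepsin D, encoded by *Ctsd* (chr7:142375911-142388038 of GRCm38, minus strand), is the main aspartic endopeptidase of the lysosome and was among the most abundant members. Its normalized counts were 3287 (WH7) and 2745 (WH8) for Ctrl, and 4604 (WH9) and 4706 (WH10) for *miR-128*OE, the order kept below. Both *miR-128*OE values lay well above both Ctrl values. The log2 fold change was 0.62 (SE 0.10, 95% CI 0.41 to 0.84, adjusted p = 0.00156). Of the 50-base words of its transcript, 36.6% also occur in *Gm49369*, a gene model on the same strand, so that its count depends on how such reads were assigned.

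*Ctsb* (chr14:63122462-63145923, plus strand), encoding cathepsin B, an abundant cysteine protease with endo- and dipeptidase activity, had 3342 and 2791 normalized counts in Ctrl against 5226 and 4731 in *miR-128*OE. This was a log2 fold change of 0.70 (SE 0.10, 95% CI 0.47 to 0.93, adjusted p = 0.00123), with no overlap between groups. The share of its words found in other transcripts was 15.5%, all in *Fdft1* on the opposite strand, whose own log2 fold change was 0.11 (adjusted p = 0.62).

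*Ctsl* (chr13:64359337-64370890, minus strand) encodes cathepsin L, the cysteine endopeptidase whose loss in mice leads to cardiomyopathy. It had 2569 and 1673 normalized counts in Ctrl against 3209 and 3025 in *miR-128*OE. The spread within Ctrl was wide, with WH8 lowest, and the log2 fold change was 0.55 (SE 0.16, adjusted p = 0.0277). The call was lost under total counts, in DESeq2's test and when either *miR-128*OE library was left out, where the log2 fold change was 0.52 without WH9 and 0.61 without WH10. Without WH8 the log2 fold change was 0.28 and without WH7 it was 0.90. Of its words 28.1% also occur in other transcripts, those of *Gm47123* and *Gm49230* among them. The fibroblast marker *Lum* was also lowest in WH8 (2780.0, 1654, 3546 and 3366 normalized counts), and the summed level of the 5 fibroblast markers was 3619 and 2379 CPM in Ctrl against 2975 and 3194 in *miR-128*OE. Of these markers 1 was higher and 0 were lower (0 and 0 under total counts), and their part in the values of *Ctsl* was not tested. In bulk hearts, fewer cells of a type and less RNA per cell cannot be told apart.

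The largest fall among the members was that of *Ctsf* (chr19:4855130-4860918, plus strand), which encodes cathepsin F, a papain-like cysteine protease with an unusually long propeptide. Normalized counts were 403 and 339 in Ctrl against 96.0 and 103 in *miR-128*OE, and the groups were far apart. The log2 fold change of −1.91 (SE 0.15, 95% CI −2.23 to −1.58, adjusted p = 4.93e-05) was a 3.75-fold fall, and ranked 86 of 14266 by size of fall. None of its words were shared with another transcript. Across the 14 alternative fits the value ran from −2.01 to −1.77, and the adjusted p was at most 0.00115.

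*Ctsg* encodes cathepsin G, a serine protease stored in the granules of neutrophils and of some mast cells rather than a digestive lysosomal enzyme. It had 103 and 144 normalized counts in Ctrl against 86.1 and 63.1 in *miR-128*OE, a log2 fold change of −0.72 (SE 0.24, adjusted p = 0.0474). The groups did not overlap, but the gap between WH7 and WH9 was narrow. The call was lost in DESeq2's test and without WH8, WH9 or WH10, with log2 fold changes of −0.48, −0.94 and −0.49 for the last 3. Of 5 mast cell markers 5 were lower, where 15.0% of all genes tested were lower. Their summed level was 73.3 and 81.4 CPM in Ctrl against 32.0 and 34.1 in *miR-128*OE. *Cma1*, encoding mast cell chymase, changed by −2.35 on the log2 scale (adjusted p = 0.000208), the tryptase gene *Tpsb2* one of −2.06 (0.000449), and *Mcpt4* one of −2.39 (0.000973). *Kit* on this list is also expressed by other cells. Neutrophil markers showed 0 of 5 tested genes past the threshold in either direction (1 lower under total counts), with sums of 74.4 and 101 CPM in Ctrl against 75.1 and 69.4 in *miR-128*OE. Their leading genes *Elane*, *Ngp* and *Mpo* had log2 fold changes of −0.36, −0.47 and −0.32, *S100a8* and *S100a9* had 0.09 and −0.12, and *Ly6g* had 0, 0, 0 and 1 counts. The part of these cells in the values of *Ctsg* was not tested.

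**Figure D2:**
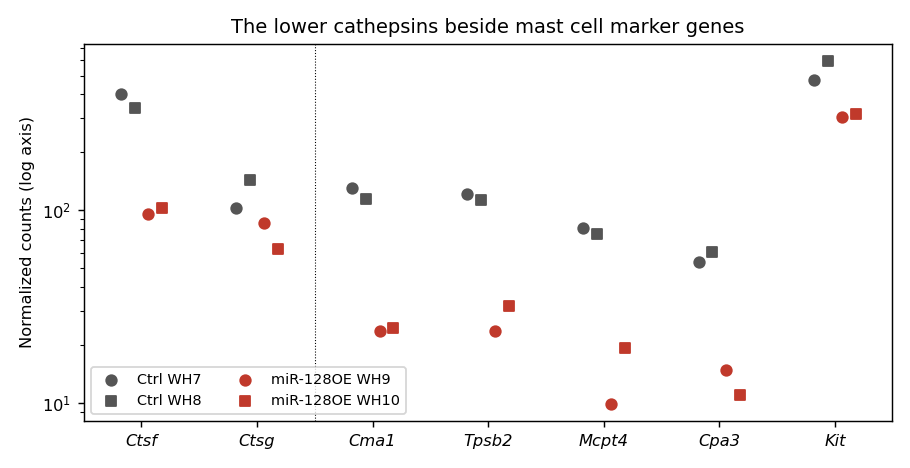
Normalized counts (log axis) of the lower cathepsins Ctsf and Ctsg, left of the dotted line, and of the 5 mast cell marker genes, with a point per library. Ctsf fell from 403 and 339 to 96.0 and 103, the Ctsg values 103 and 86.1 lie close to each other, and all 5 markers are lower in both miR-128OE libraries.

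*Ctse* encodes cathepsin E, an aspartic protease of endosomes known from stomach and immune cells. It was close to the detection floor, with 2 and 1 counts in Ctrl, under the floor of 3 counts per library, and 14 and 21 in *miR-128*OE. The gene passed the filter through the *miR-128*OE libraries alone. The summed counts were 35 and 3, and their ratio scaled by effective library size was 9.56, with an exact counting interval of 3.01 to 48.6 at 95% that covers counting error only. Its call, lost when either *miR-128*OE library was left out, is not taken as support for a change of the cathepsins.

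The remaining tested cathepsins did not pass the threshold. *Ctsa*, encoding the serine carboxypeptidase that also protects β-galactosidase and neuraminidase, had 1813 and 1843 normalized counts in Ctrl against 1789 and 1819 in *miR-128*OE, with a log2 fold change of −0.02 and an interval of −0.19 to 0.15. Its words were 15.9% shared, with *Pltp* and *Neurl2* on the opposite strand among others. *Pltp* was itself higher (0.55, adjusted p = 0.0110), and *Neurl2* did not pass (0.36, 0.0935). The part of such reads in the value of *Ctsa* was not tested. *Ctsz*, the carboxypeptidase cathepsin Z, had 1067 and 869 against 907 and 853, with overlapping groups and a log2 fold change of −0.14 (−0.38 to 0.09). It was −0.28 and past the threshold without WH8, and 0.02 without WH7. *Ctsh*, an aminopeptidase, had 433 and 281 against 269 and 376, so that the spread within each group was wider than the difference (log2 fold change −0.16, adjusted p = 0.58), and the sign turned with the Ctrl library left out, 0.21 without WH7 and −0.41 without WH8. *Ctso* had 326 and 312 against 238 and 279, lower in both *miR-128*OE libraries but not past the threshold (log2 fold change −0.30, adjusted p = 0.0951), although it was called under total counts at −0.40.

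*Ctsc*, whose product dipeptidyl peptidase I activates the serine proteases of granules, had 302 and 189 normalized counts in Ctrl against 308 and 310 in *miR-128*OE. WH8 alone stood low, and the log2 fold change was 0.30 (adjusted p = 0.24) with all libraries, 0.71 and past the threshold without WH7, and 0.04 (adjusted p = 0.85) without WH8. *Ctss* and *Ctsk*, cathepsins best known from antigen-presenting cells and osteoclasts, had log2 fold changes of −0.07 (−0.43 to 0.29) and 0.13 (−0.25 to 0.50), the latter 0.41 without WH7 and −0.07 without WH8. *Ctsw*, expressed by cytotoxic lymphocytes, had 11.9 and 11.3 against 10.9 and 5.05 normalized counts, a level too low to show a difference of less than several fold (interval −1.78 to 0.63). Of 13 macrophage markers 0 were higher and 2 lower (15.0% of all genes were lower), and the list's median was −0.12 on the log2 scale. The lower genes were *Cx3cr1* (−1.09, adjusted p = 0.00128) and *Fcer1g* (−1.06, 0.00921), while *Cd163* had −0.78 (0.0761) and the other 10 lay between −0.34 (*Adgre1*) and 0.10 (*C1qa*). Their sum was 209 and 152 CPM in Ctrl against 154 and 151 in *miR-128*OE. Of 6 lymphoid markers 2 were tested and 0 passed in either direction, *Ptprcap* at −0.64 and *Cd79a* at 0.38, with sums between 6.14 and 6.72 CPM in all libraries. The part of these cells in the cathepsin values was not tested. *Ctsj*, *Ctsm*, *Ctsq* and *Ctsr*, cathepsins of the rodent placenta, had 0 counts in every library.

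**Figure D3:**
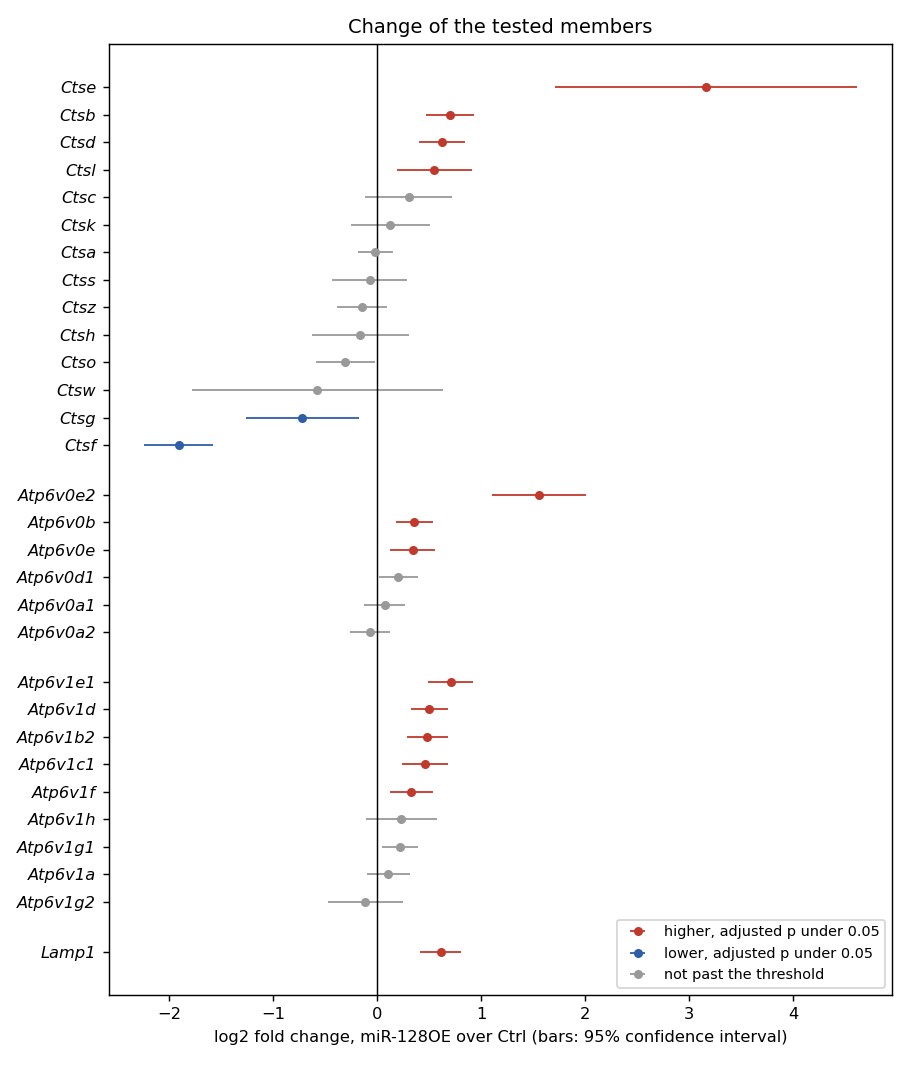
Log2 fold change (miR-128OE over Ctrl) of the 30 tested members with 95% confidence intervals, in red for the 13 higher, in blue for the 2 lower and in grey for the 15 not past the threshold. Cathepsins run from 0.70 for Ctsb to −1.91 for Ctsf, apart from Ctse, whose point rests on 3 Ctrl counts and is no estimate of size, and the intervals of the higher pump genes other than Atp6v0e2 lie between 0.12 and 0.92.

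Of the 6 tested genes named for the V0 sector, 3 were higher and 0 lower, where 16.5% of all genes tested were higher and 15.0% lower. *Tcirg1*, described below, was outside this count and was lower. The largest change was in *Atp6v0e2* (chr6:48537615-48541801, plus strand), which encodes the alternative form of the small e subunit, known from brain. Normalized counts were 117 and 74.9 in Ctrl against 319 and 263 in *miR-128*OE, with no overlap and a log2 fold change of 1.56 (SE 0.20, 95% CI 1.11 to 2.01, adjusted p = 0.000625). The ubiquitous partner *Atp6v0e* had 577 and 510 normalized counts in Ctrl against 709 and 675 in *miR-128*OE, a log2 fold change of 0.34 (SE 0.10, adjusted p = 0.0250). Its call was lost in 5 alternatives, under total counts (log2 fold change 0.24), in DESeq2's test (0.35), and without WH8 (0.26), WH9 (0.32) or WH10 (0.40). Per exonic length, *Atp6v0e2* made up 29.6% and 23.4% of the 2 e subunit genes in Ctrl against 48.3% and 44.7% in *miR-128*OE. In counts not divided by length it made up 16.9% and 12.8% against 31.0% and 28.1%, so that the size of the share depends on the lengths used.

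*Atp6v0b* encodes the c″ subunit of the proton-carrying ring. It had 1083 and 1064 normalized counts in Ctrl against 1399 and 1354 in *miR-128*OE, with a small spread in both groups (log2 fold change 0.36, SE 0.08, adjusted p = 0.00816). The offset for GC content and length reduced the value to 0.21 and ended the call, as did leaving out WH9 (0.35) or WH10 (0.40). *Atp6v0d1*, the ubiquitous d subunit at the base of the rotor, had 675 and 659 against 772 and 765, higher in both *miR-128*OE libraries but not past the threshold (log2 fold change 0.20, adjusted p = 0.0928). Its partner *Atp6v0d2*, known from osteoclasts and kidney, had 3, 0, 2 and 0 counts.

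The a subunit is part of the stator and directs the pump to its membrane. *Atp6v0a1* had 1142 and 1252 normalized counts in Ctrl against 1205 and 1313 in *miR-128*OE (log2 fold change 0.08, interval −0.12 to 0.27), and *Atp6v0a2* 695 and 708 against 653 and 680 (−0.07, −0.26 to 0.12). The groups overlapped for *Atp6v0a1*. The kidney form *Atp6v0a4* was near the floor at 6, 3, 8 and 3 counts. *Tcirg1*, the gene of the a3 form of osteoclasts and of lysosomes elsewhere, does not carry the *Atp6v* name and was placed with the accessory genes. It fell, from 796 and 847 normalized counts to 474 and 507, a log2 fold change of −0.74 (SE 0.09, adjusted p = 0.000494). Per exonic length it made up 36.7% and 36.6% of the a subunit genes in Ctrl against 25.3% and 25.3% in *miR-128*OE, and *Atp6v0a1* 43.2% and 44.3% against 52.7% and 53.6%.

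The c subunit gene *Atp6v0c*, which encodes the main proteolipid of the ring and is needed by the pump in every cell, had only 1, 0, 0 and 0 counts. Of its transcript's 50-base words 32.5% occur in the pseudogenes *Atp6v0c-ps2* and *Atp6v0c-ps1*, and *Atp6v0c-ps2* had 0 counts in all libraries. How the counting treated reads that fit several places was not given in the sources used here, and its part in these counts was not tested.

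**Figure D4:**
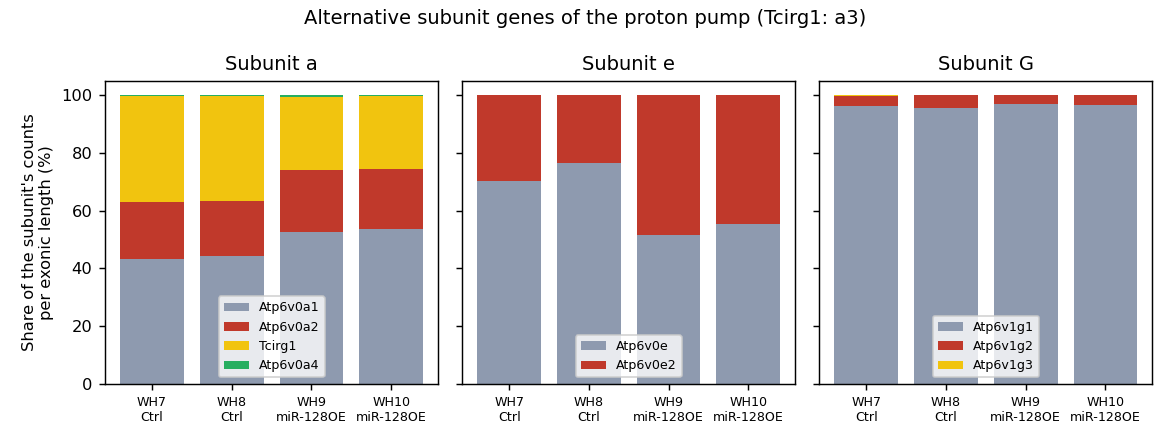
Stacked bars of the share (%) of each gene in the summed counts per exonic length of its subunit, for the alternative genes of subunits a, e and G in each library. The Atp6v0e2 share of subunit e is 29.6% and 23.4% in Ctrl against 48.3% and 44.7% in miR-128OE, the Tcirg1 (a3) share of subunit a is 36.7% and 36.6% against 25.3% and 25.3%, and Atp6v1g1 holds 95.8% to 96.9% of subunit G.

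In the V1 sector, 5 of 9 tested genes were higher and 0 lower, where 16.5% of all genes tested were higher and 15.0% lower. *Atp6v1e1* (chr6:120794305-120822793, minus strand), encoding the ubiquitous E subunit of the peripheral stalks, had 947 and 800.0 normalized counts in Ctrl against 1457 and 1406 in *miR-128*OE. The log2 fold change was 0.71 (SE 0.10, 95% CI 0.49 to 0.92, adjusted p = 0.000803), the largest of the V1 genes. The testis form *Atp6v1e2* had 4, 2, 2 and 3 counts. *Atp6v1d* (chr12:78840725-78861638, minus strand), which encodes the shaft of the rotor, had 958 and 960 normalized counts in Ctrl against 1362 and 1358 in *miR-128*OE. Replicates of each group were almost equal, and the log2 fold change was 0.50 (SE 0.08, adjusted p = 0.00151). *Atp6v1f*, the other rotor gene, had 857 and 758 against 988 and 1046 (0.33, SE 0.09, adjusted p = 0.0223). Its call was lost under total counts (0.23), in DESeq2's test (0.33), with the offset for GC content and length (0.19), and without WH9 (0.38) or WH10 (0.31).

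*Atp6v1b2* encodes the ubiquitous B subunit, which alternates with subunit A in the ATP-hydrolyzing ring. It had 663 and 660.0 normalized counts in Ctrl against 965 and 884 in *miR-128*OE, a log2 fold change of 0.48 (SE 0.09, adjusted p = 0.00319). The kidney and inner ear form *Atp6v1b1* had 0, 2, 1 and 0 counts. The catalytic A subunit gene *Atp6v1a*, whose product is present in the same number in the ring, did not pass the threshold at 603 and 553 against 634 and 614 normalized counts (log2 fold change 0.11, interval −0.10 to 0.31). Whether the changes of *Atp6v1b2* and *Atp6v1a* differ was not tested.

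*Atp6v1c1*, the gene of the C subunit that holds V1 and V0 together, had 429 and 466 normalized counts in Ctrl against 639 and 594 in *miR-128*OE (0.46, SE 0.10, adjusted p = 0.00728), and *Atp6v1c2* had 3, 3, 0 and 0 counts. Calls of *Atp6v1c1* and *Atp6v1b2* were lost in 1 alternative each, without WH9, at 0.42 and 0.43. *Atp6v1g1*, the ubiquitous G subunit gene, had 2057 and 2001 against 2433 and 2312 and lay just outside the threshold (0.22, adjusted p = 0.0513). The neuronal form *Atp6v1g2* had 133 and 144 against 130 and 125 (−0.11, −0.48 to 0.25), and *Atp6v1g3* had 1, 0, 0 and 0 counts. *Atp6v1h*, the regulatory H subunit gene, had 402 and 567 against 605 and 524. Its groups overlapped and its value depended on the Ctrl library used, from −0.01 without WH7 to 0.49 without WH8. *Atp6v1fnb*, named for its place beside *Atp6v1f*, had 4, 0, 0 and 1 counts.

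*Lamp1* (chr8:13159161-13175338, plus strand) had 2806 and 2452 normalized counts in Ctrl against 4045 and 3988 in *miR-128*OE. The groups were well apart and the log2 fold change was 0.61 (SE 0.09, 95% CI 0.41 to 0.81, adjusted p = 0.00108). X-linked *Lamp2*, outside the members and on a chromosome whose copy number differs with sex, had 1644 and 1582 against 2295 and 2095 (0.44, adjusted p = 0.00359).

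Levels can be compared between genes only per exonic length. The length was that of all annotated exons of a gene, 1135 bases for *Atp6v1g1* and 6168 for *Ctsl*. The order therefore depends on the lengths used. Of the 50-base words of *Atp6v1g1*, 19.15% also occur in *Gm13453* and *Gm12344*, so that its count depends on how such reads were assigned. In Ctrl hearts the highest TMM-scaled CPM per kb among members was that of *Atp6v1g1* (152), followed by *Ctsd* (120), *Lamp1* (100) and *Atp6v0b* (91.2). In *miR-128*OE hearts the order was *Ctsd* (186), *Atp6v1g1* (178), *Lamp1* (153) and *Atp6v0b* (117). *Ctsb* had 54.9 and 89.2, while *Ctsf* went from 15.9 to 4.26 and *Atp6v0e2* from 4.56 to 13.8. Neighbors in this order were not tested against each other.

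The promoters of the members were read from RefSeq (GRCm38.p6) as 300 bases around each start and searched on both strands for the E-box CACGTG and for TCACGTG, an E-box with the preceding T that MiT/TFE factors prefer. Promoters of 32 members were found, 36 in all. The E-box was present in 9 of the 36, or 25.0%, against 7.15% of all 32851 promoters, and TCACGTG in 7, or 19.4%, against 3.77%. Among the 23 promoters of tested members these shares were 39.1% and 30.4%, against 9.61% and 5.65% of the promoters of genes tested. Promoters were found for 9 of the 13 higher members, of which 5 held an E-box and 4 held TCACGTG. Of 10 members not past the threshold, 3 held an E-box and 3 held TCACGTG. Over all tested genes with a promoter, 11.4% held an E-box and 6.73% TCACGTG. Whether the motif goes with a change was not tested. The windows below show it in capitals, 5′ to 3′ on the strand of the gene, for the promoter with the most sites (*Lamp1*, 2 of its 4), for higher genes, for *Ctsa*, which did not pass the threshold, and for *Ctsf*, which fell, and *Ctsl*, which was higher, whose E-boxes both lack the T on either strand. A match is a description of the sequence and not a shown binding site.
*Lamp1*, chr8:13159088-13159117, plus strand: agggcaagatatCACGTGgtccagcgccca
*Lamp1*, chr8:13159134-13159163, plus strand: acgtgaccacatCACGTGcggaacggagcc
*Ctsd*, chr7:142387908-142387937, minus strand: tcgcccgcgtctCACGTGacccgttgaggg
*Atp6v0b*, chr4:117887330-117887359, minus strand: gggtcggcgcatCACGTGcgccggtcaggt
*Atp6v0e*, chr17:26676387-26676416, plus strand: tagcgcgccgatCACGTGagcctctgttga
*Ctsa*, chr2:164833749-164833778, plus strand: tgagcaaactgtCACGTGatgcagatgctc
*Ctsf*, chr19:4855074-4855103, plus strand: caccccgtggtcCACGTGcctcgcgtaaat
*Ctsl*, chr13:64370739-64370768, minus strand: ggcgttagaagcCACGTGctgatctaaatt

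The overexpressed microRNA pairs with target transcripts through its seed, shown as bases 2 to 8 in capitals in the RefSeq mature sequence. Matches to bases 2 to 8, or to bases 2 to 7 followed by an A, were searched in 1 3′UTR per gene, the longest in GENCODE M21. Of 30 tested members 7 had at least 1 match, 23.3%, against 30.9% of 13489 tested genes with a 3′UTR. The median 3′UTR was shorter in members, at 699.5 bases against 1188. Of 13 higher members 3 had a match (*Lamp1*, *Atp6v1c1* and *Atp6v1d*), of the 2 lower members 0, and of 15 others 4 (*Atp6v0d1*, *Atp6v1a*, *Atp6v1g2* and *Ctsc*). The matches of *Atp6v1d* and *Atp6v1a* were of the second kind, that of *Atp6v1g2* of both at once, and the others of the first. *Ctsf* and *Ctsg*, the members that fell, thus held no match in these 3′UTRs. The sites of the higher members and the longest match, the 8-base one of *Atp6v1g2*, are shown with 10 bases on each side, the match in capitals.
miR-128-3p: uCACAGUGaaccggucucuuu
*Lamp1*, chr8:13175200-13175226, plus strand: cctgtctctgCACTGTGtacaataata
*Atp6v1c1*, chr15:38692186-38692212, plus strand: aacctgtgccCACTGTGctgtgtgtga
*Atp6v1d*, chr12:78840811-78840837, minus strand: ggcaggcagaACTGTGAgttccaagag
*Atp6v1g2*, chr17:35238431-35238458, plus strand: tttgttcagcCACTGTGAcactagtaac

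Other genes of the lysosome were examined from lists fixed by symbol. These lists depend on the scaling. Under total counts, which moved the median of all genes to −0.11, the hydrolases had 5 higher and 6 lower genes, the membrane proteins 5 and 1, the accessory genes 3 and 1, the sorting genes 0 and 3, the mTORC1 genes 5 and 3 and the autophagy genes 6 and 2, beside 11.3% higher and 20.7% lower of all genes. The counts that follow are those with TMM factors, where 16.5% of all genes tested were higher and 15.0% lower. Of 41 lysosomal hydrolases 10 were higher and 1 lower, and the median log2 fold change was 0.17. The 3 with the smallest p were *Smpd1*, the acid sphingomyelinase gene (631 and 660.0 against 1102 and 1141 normalized counts, 0.80, adjusted p = 0.000216), *Plbd2* (0.55, 0.00138), and *Psap*, the precursor of the saposins (0.55, 0.00145). Of 23 lysosomal membrane protein genes, *Lamp2* included, 5 were higher and 1 lower, with a median of 0.04, led by *Scarb2*, the LIMP-2 gene (1053 and 1047 against 1918 and 1873, 0.85, adjusted p = 0.000112), *Cd63* (0.55, 0.00155) and *Ostm1*, the partner of a lysosomal chloride transporter (0.70, 0.00206). Of 11 tested accessory and assembly genes of the V-ATPase 4 were higher and 1 lower, with a median of 0.12. The lower gene was *Tcirg1*, a subunit gene placed here for its name. *Rnasek* (0.68, adjusted p = 0.000767) and X-linked *Atp6ap1* (0.50, 0.00161) were the next by p-value.

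Cystatins are the protein inhibitors of cysteine cathepsins. Of 11 cystatin genes 4 were tested, 1 was higher and 0 lower. *Cst3*, encoding the secreted cystatin C, had 5160 and 4051 normalized counts in Ctrl against 6674 and 7077 in *miR-128*OE (0.58, SE 0.12, adjusted p = 0.00536), *Cstb*, the cytosolic inhibitor, had 0.32 (adjusted p = 0.0687) and *Cst9* −1.66 (0.0767). Among the 4 MiT/TFE factors *Tfeb* was higher (577 and 485 against 679 and 669 normalized counts, 0.34, adjusted p = 0.0344), *Mitf* lower (674 and 820 against 603 and 563, −0.35, 0.0360), and *Tfec* did not pass at −0.38 (0.59). Under total counts *Tfeb* had 0.24 and did not pass (adjusted p = 0.12), while *Mitf* did at −0.45.

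Among 11 genes that sort hydrolases to the lysosome 2 were higher and 2 lower, beside 16.5% and 15.0% of all genes tested. *Gnptab*, which makes the mannose 6-phosphate tag, was lower (583 and 748 against 384 and 393, −0.77, adjusted p = 0.00201), and both receptors of the tag, *M6pr* (0.35, 0.0215) and *Igf2r* (0.29, 0.0216), were higher, but neither passed under total counts (0.25 and 0.19). Of 18 genes of mTORC1 at the lysosome 8 were higher and 2 lower, with *Rheb* at 0.60 (adjusted p = 0.000725), *Rraga* at 0.53 (0.00224) and *Flcn* at −0.70 (0.00258). Of 36 autophagy genes 9 were higher and 1 lower, with a median of 0.12. *Map1lc3a*, an LC3 gene, had 3657 and 3492 against 7295 and 7158 normalized counts (1.02, adjusted p = 6.85e-05), *Bnip3*, a mitophagy receptor gene, 1.02 (0.000107) and *Wipi1* 0.57 (0.00141).

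**Figure D5:**
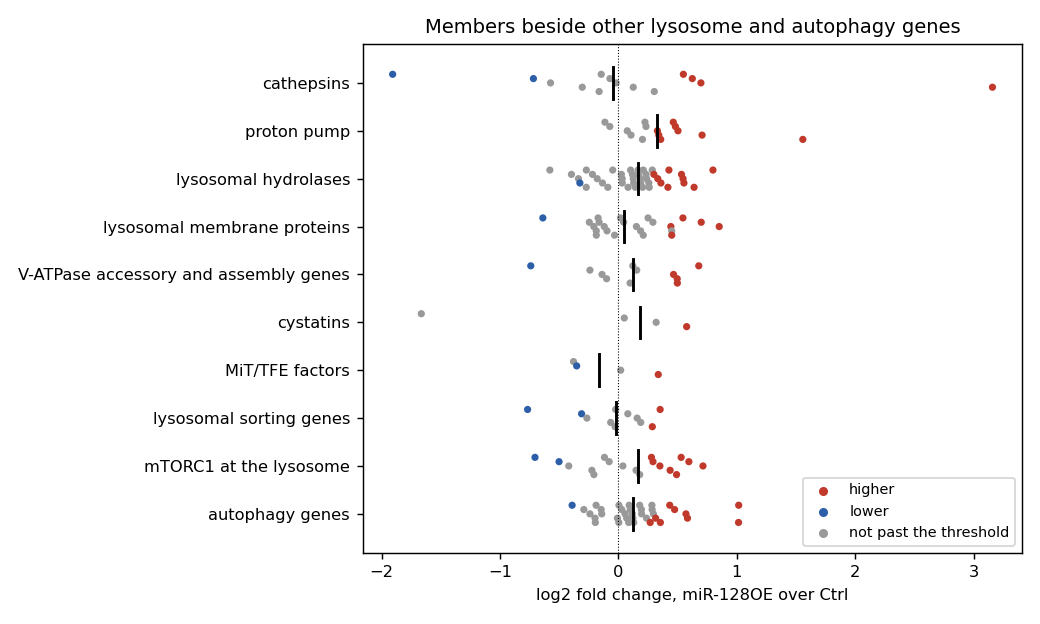
Log2 fold change (miR-128OE over Ctrl) of each tested gene of the cathepsins, the proton pump and 8 lists of other lysosome and autophagy genes, in red for higher, blue for lower and grey for not past the threshold, with a black bar at each list's median. The medians run from −0.17 for the MiT/TFE factors to 0.33 for the proton pump, and most lists hold genes on both sides of 0.

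Cell type markers of the heart were set beside these values, again with 16.5% of all genes tested higher and 15.0% lower. Of 5 CM markers 2 were higher and 1 lower, with *Actn2* at 0.76 (adjusted p = 0.000586), *Ryr2* at −0.40 (0.00655) and *Myh6* at 0.33 (0.0207). Of 5 endothelial markers 2 were higher and 1 lower, *Pecam1* at 0.42 (adjusted p = 0.00519), *Emcn* at −0.29 (0.0383) and *Cdh5* at 0.27 (0.0464), with sums of 1270 and 1269 CPM against 1468 and 1358. Among fibroblast markers *Lum* had 0.63 (adjusted p = 0.0286), *Tcf21* 0.30 (0.17), *Pdgfra* 0.24 (0.24), *Dcn* 0.21 (0.26) and *Col1a1* −0.12 (0.64), and *Lum* did not pass under total counts (adjusted p = 0.0603). Their part in the changes of the pump genes and of *Lamp1* was not tested.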

How the data were processed

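RNA-seq of P7 hearts was analyzed in 2 Ctrl and 2 *miR-128*OE libraries. Before alignment to mm10 with TopHat2 the authors filtered reads by quality. Bioconductor packages then counted the reads on known genes, and the deposited table holds these raw counts per Entrez Gene identifier. The gene models, use of strand and rule for reads fitting several genes were not given in the sources used here, so counts of overlapping or near-identical genes are uncertain. The submitters' notes also name bcl2fastq and edgeR.

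Identifiers were paired with symbols through RefSeq and GENCODE M21 tables (24381 of 24454). Counts were fitted over all genes with edgeR 4.0.16 in R 4.3.3 (filterByExpr defaults, TMM factors, quasi-likelihood test as the main test), and p-values were adjusted by Benjamini-Hochberg over 14266 genes at 0.05. A standard error is the absolute log2 fold change over √F. Normalized counts are TMM-scaled to the mean effective library size. Within each group libraries differed by more than sampling noise (chi-square per degree of freedom 9.91 in Ctrl and 4.82 in *miR-128*OE). Coordinates refer to GRCm38, the assembly of mm10. Shared sequence was counted as 50-base words over GENCODE M21 transcripts. A total of 3 counts per library was taken as the floor, and floors and counting intervals cover counting error only, since PCR reads without molecular identifiers are not independent molecules. Scripts were tested on simulated data. DESeq2 1.42.0, other scalings, filters, thresholds and tests, autosomal genes alone, a loess offset for GC content and length, and each library left out were the alternatives.

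All members are named. Values in every library are given for called members with the 12 smallest adjusted p-values, cathepsins of at least 20 CPM, alternative subunit genes and *Lamp1*, and of each list the 3 genes with the smallest p are named. The members and lists were chosen with earlier results of these data known. Hearts at other ages were not analysed here.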

Additional observations from a re-analysis of the deposited data

How the results depend on the processing

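With 2 libraries per group, the fits rest on a spread pooled over genes, and condition and sex cannot be told apart. Leaving aside *Ctse*, 9 of the 14 members past the threshold kept their call in each alternative fit with 4 libraries (*Atp6v0e2*, *Atp6v1b2*, *Atp6v1c1*, *Atp6v1d*, *Atp6v1e1*, *Ctsb*, *Ctsd*, *Ctsf* and *Lamp1*), and 7 also with any library left out, at the same threshold. Of the 15 others, 5 passed the threshold in at least 1 alternative. The count of lower members, 2, was 1 in DESeq2's test, 1 at an adjusted p under 0.01 and 3 under total counts. With *Ctse* counted again, the count of higher members was 13 (12 without it). It was 6 when a fold of 1.5 was required (5 without *Ctse*, beside 6.55% of all genes). With *Ctse* it was 10 under total counts and in DESeq2's test, and 11 with the offset for GC content and length. Total counts called 1611 genes higher and 2948 lower among all genes, against 2347 and 2143. The members' median log2 fold change of 0.23 was 0.18 with upper-quartile factors, 0.13 with total counts and 0.17 with the offset for GC content and length. With a library left out the members' median ranged from 0.20 to 0.31, and a group reduced to 1 library was assumed to vary like the other. DESeq2's test called 1711 genes higher and 1403 lower. The causes of these differences were not tested. No paired analysis was possible because the labels give no numbers that pair the libraries. The 12 members not tested had 8 counts or fewer in each library, and the cause was not tested.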
